A study of Mus musculus with 6 samples.

Results

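The genes described here build and maintain the centrosome: Plk4, Stil, Sass6, Cep135, Cep152, Cep192, Cep63, Cep72, Nek2 and Cetn2. They were found on the arrays as every non-control probe whose RefSeq accession belongs to one of these symbols, which gave 10 genes and 11 probes of 20832 named genes and 39429 probes in all. The list was drawn up by function with earlier results of these data known, and Cep72 was selected on its measured intensity in this contrast, dim in Rb intact cells and bright in Rb deleted cells. The values of Cep72 are therefore given as a description with no test, and counts of the other 9 genes are set beside the share of all genes and not read as evidence about the list.

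Expression was measured on 6 Cy3 (1-colour) arrays of primary mouse prostate cells, 3 per group. The Rb deleted cells, of genotype p53-/- Rb deltaf/deltaf, had been infected overnight with an adenovirus carrying Cre recombinase. The Rb intact cells, of genotype p53-/- Rbf/f, had been infected with an adenovirus carrying lacZ. Both groups lacked p53, grew without serum in medium with bFGF and bEGF, and gave RNA 48 hours after infection. Every Rb deleted culture received one virus and every Rb intact culture the other, so virus and Rb status cannot be told apart. The labels used here give neither the age of the mice nor the share of cells that recombined. The design text speaks of independent experiments, but the labels do not say which cultures share animals, so p-values measure the spread between these samples. All Rb intact arrays and Rb deleted 1 lay on the first of 2 slides, and Rb deleted 2 and 3 on the second.

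The centrosome organises microtubules around a pair of centrioles, and each centriole templates a new one during S phase. The kinase Plk4 is brought to the parent centriole by Cep192 and Cep152, and Cep152 works in a complex with Cep63. Plk4 then phosphorylates Stil, which recruits Sass6 to form the cartwheel of the new centriole, and Cep135 ties the cartwheel to the microtubule wall. At the entry to mitosis Nek2 dissolves the linker between the centrosomes. Rb restrains the E2F transcription factors, which drive genes of S phase.

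Levels below are log2 processed intensity relative to the 75th percentile of the array, and a difference is the Rb deleted mean minus the Rb intact mean. "Rose" and "fell" mean a limma adjusted p under 0.05 over all 13729 tested genes. The targeted gene Rb1 stood at -3.12, -3.11 and -3.07 in Rb deleted cells, against -1.15, -1.13 and -1.16 in Rb intact cells. The share of probes that the scanner software called well above background ran from 58.7% to 63.3% over the arrays, and saturation was called for none. Of 10 markers of prostate epithelium 5 were tested, and among them Trp63, Krt18, Krt14 and Krt8 were well above background on all 6 arrays. The defining epithelial genes Cdh1 and Epcam were not well above background on any array. All 6 fibroblast markers, the brightest of them Dcn, were well above background on all 6 arrays. The labels call the cells prostate cells and name no cell type.

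Among the 9 genes without Cep72, 3 rose and none fell, while 9.67% of all tested genes rose and 10.8% fell. Those that rose were Sass6, Cep63 and Nek2, by 1.22-fold to 1.26-fold. In all, 8 of 9 were higher in Rb deleted cells, beside 52.6% of all tested genes. The median difference of the 9 was 0.24, against a median of 0.015 over all tested genes. At an unadjusted p under 0.05, 4 were higher and 1, Cetn2, was lower, while 18.3% of all tested genes were higher and 17.4% lower. The groups did not overlap upward for Sass6, Cep63, Nek2 and Stil, or downward for Cetn2, while 23.7% of all tested genes were separated upward and 21.5% downward. Each of these 9 genes was well above background on all 6 arrays. The counts changed whichever array was left out, while the median difference of the 9 then ran from 0.17 to 0.27. None of the 9 rose without Rb deleted 1, 2 or 3, where 6.33%, 3.38% and 3.46% of all tested genes rose. Without Rb intact 2 or without Rb intact 3, 1 of the 9 rose, beside 5.27% and 5.31% of all tested genes, and without Rb intact 1, 4 rose, beside 19.1%.

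**Figure D1:**
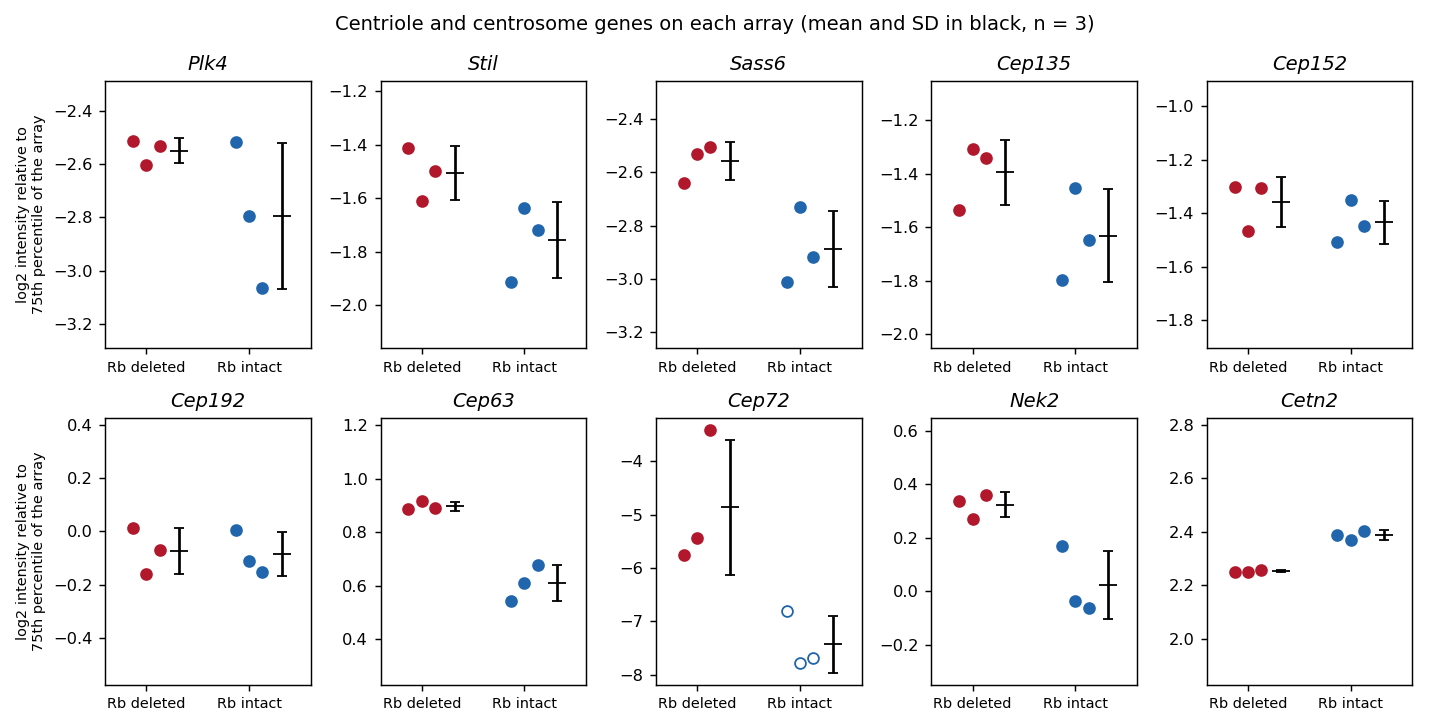
Level of each gene (log2 intensity relative to the 75th percentile of the array, vertical axis) on the 3 Rb deleted arrays (red, left) and the 3 Rb intact arrays (blue, right), with mean and SD in black; each panel but that of Cep72 spans 1 log2 unit, and hollow points were not well above background. The groups are separate for Stil, Sass6, Cep63, Nek2 and Cetn2, and for Cep72 the Rb deleted arrays run from -5.75 to -3.41.

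Plk4, the kinase that starts centriole duplication, stood at -2.51, -2.60 and -2.53 in Rb deleted cells, against -2.52, -2.80 and -3.07 in Rb intact cells. The Rb deleted cultures were close together, and the Rb intact cultures were spread, with Rb intact 1 at the level of the Rb deleted cultures. The difference was 0.24 ± 0.14 (SE, limma adjusted p = 0.25), and the SD was 0.047 in Rb deleted cells and 0.27 in Rb intact cells (n = 3 each). Without Rb intact 1 the difference was 0.38 (adjusted p = 0.026), and without Rb intact 3 it was 0.11 (adjusted p = 0.497).

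Stil, which Plk4 phosphorylates, stood at -1.41, -1.61 and -1.50 in Rb deleted cells, against -1.91, -1.63 and -1.72 in Rb intact cells. The lowest Rb deleted culture lay just above the highest Rb intact culture. The difference was 0.25 ± 0.093 (SE, limma adjusted p = 0.11), so Stil did not pass the threshold, and it passed under none of the 20 other settings.

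Sass6, which encodes the cartwheel protein, stood at -2.64, -2.53 and -2.51 in Rb deleted cells, against -3.01, -2.73 and -2.92 in Rb intact cells. Every Rb deleted culture lay above every Rb intact culture. Sass6 rose by 0.33 ± 0.087 (SE, 1.26-fold, limma adjusted p = 0.044), the largest difference among the 9 genes. The call was lost without any 1 Rb deleted array and without Rb intact 3, where adjusted p was between 0.078 and 0.152.

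Cep135, which joins the cartwheel to the centriole wall, stood at -1.53, -1.31 and -1.34 in Rb deleted cells, against -1.80, -1.45 and -1.65 in Rb intact cells. The groups overlapped, since Rb intact 2 lay above Rb deleted 1. The difference was 0.24 ± 0.11 (SE, limma adjusted p = 0.172) and did not pass the threshold. Within the first slide it was 0.098.

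Cep152 and Cep192 encode the scaffolds that bring Plk4 to the parent centriole. Cep152 stood at -1.30, -1.47 and -1.31 in Rb deleted cells, against -1.51, -1.35 and -1.45 in Rb intact cells. These values interleave, and the difference was 0.076 ± 0.074 (SE, limma adjusted p = 0.494). Cep192 stood at 0.012, -0.16 and -0.070 in Rb deleted cells, against 0.0054, -0.11 and -0.15 in Rb intact cells. Its groups covered nearly the same range, with a difference of 0.013 ± 0.072 (SE, limma adjusted p = 0.912).

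Cep63, the partner of Cep152, had 2 probes. The brighter one stood at 0.89, 0.92 and 0.89 in Rb deleted cells, against 0.54, 0.61 and 0.68 in Rb intact cells. All Rb deleted cultures lay within a narrow band above all Rb intact cultures. Cep63 rose by 0.29 ± 0.056 (SE, 1.22-fold, limma adjusted p = 0.0175), the smallest p among the 9 genes, and the call was lost without any 1 Rb deleted array and without Rb intact 2. With normexp and quantile normalization its difference was 0.15 (adjusted p = 0.182). The dimmer probe, well above background on 1 of 3 Rb deleted and 2 of 3 Rb intact arrays, did not pass the filter. It stood at -3.77, -7.21 and -7.13 in Rb deleted cells, against -3.90, -5.80 and -7.36 in Rb intact cells, so its spread within each group was far wider than that of the brighter probe.

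Nek2, the kinase that releases the linker between centrosomes, stood at 0.34, 0.27 and 0.36 in Rb deleted cells, against 0.17, -0.037 and -0.063 in Rb intact cells. The groups were separate, with Rb intact 1 nearest to the Rb deleted cultures. Nek2 rose by 0.30 ± 0.078 (SE, 1.23-fold, limma adjusted p = 0.0418), a call lost without any 1 array other than Rb intact 1, without which adjusted p was 0.00366. The call was also lost with quantile normalization (limma adjusted p = 0.0536), with median scaling (0.0631) and with normexp and quantile normalization (0.0566). It held in 7 of the 20 other settings.

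Cetn2, a centrin of the centriole lumen that also serves in nucleotide excision repair, was the only gene of the 9 that was lower in Rb deleted cells. It stood at 2.25, 2.25 and 2.26 in Rb deleted cells, against 2.39, 2.37 and 2.40 in Rb intact cells. The cultures of each group were nearly alike and the groups were separate. The difference of -0.14 ± 0.047 (SE, limma adjusted p = 0.0924) did not pass the threshold. The fit shares information on spread across genes, and the SD of Cetn2, 0.0044 in Rb deleted and 0.018 in Rb intact cells (n = 3 each), enters it only in part.

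Cep72, a protein of the pericentriolar satellites that in human cells brings Kizuna to the centrosome, had 1 probe with 1 spot per array. Its processed intensity was 73.8, 87.4 and 400.2 in Rb deleted cells, against 31.3, 18.8 and 18.8 in Rb intact cells. The scanner software gave these spots an error of 14.6, 11.9 and 41.5 in Rb deleted cells, against 9.09, 13.1 and 12.4 in Rb intact cells. All 3 Rb deleted spots were well above background and no Rb intact spot was. The signal of Rb deleted 3 was 4.05-fold that of Rb deleted 2 on the scaled values, while Rb deleted 1 lay 1.20-fold above the lowest signal that counted as well above background on its array.

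On the log2 scale Cep72 stood at -5.75, -5.43 and -3.41 in Rb deleted cells, against -6.81, -7.78 and -7.69 in Rb intact cells. The Rb deleted cultures alone spanned 2.34. The lowest of them lay 0.23 above the highest of the lowest signals that counted as well above background on the Rb intact arrays. The probe entered the fit only through the group in which it was bright, so it had to differ. Since no Rb intact spot was well above background, the size is given as a bound, for these arrays and this scaling. Each Rb intact array took the higher of the spot's own signal and the lowest signal of any probe well above background. On that basis the mean of the Rb deleted arrays was at least 2.39-fold higher. Rb deleted 3 sets much of that bound, which was at least 1.44-fold without it, 3.24-fold without Rb deleted 1 and 2.90-fold without Rb deleted 2. The fitted difference was 2.56 ± 0.63 (SE). It was 1.84 without Rb deleted 3, 1.68 within the first slide, and 1.06 with normexp on the median signal together with quantile normalization. The SD of 1.27 in Rb deleted cells was exceeded by 0.102% of tested genes, whose median SD there was 0.056. It was also wide beside like probes: 28 genes were dim on all Rb intact arrays and bright on all Rb deleted arrays, with a median SD of 0.26 in Rb deleted cells. Among these 28, Cep72 ranked 2 by its bound, and without Rb deleted 3 it ranked 15. The authors' deposited log2 table does not hold this probe, while it holds a probe of each of the other 9 genes.

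**Figure D2:**
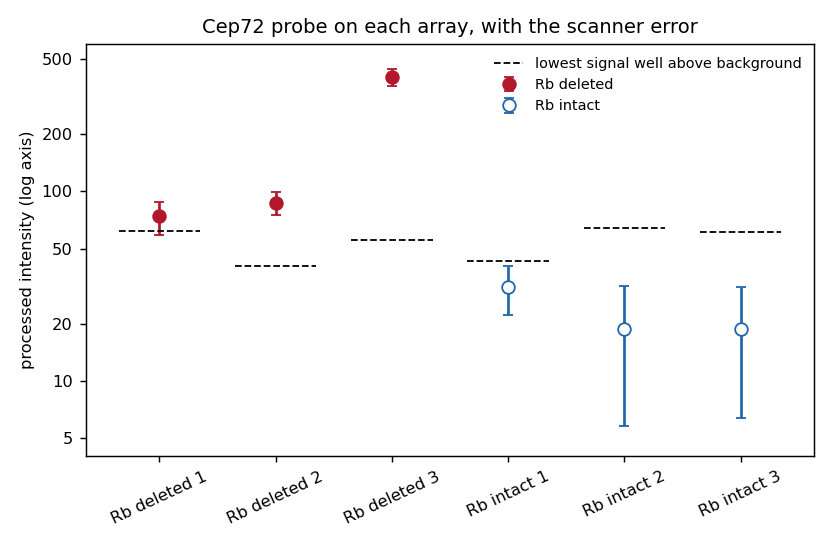
Processed intensity of the Cep72 spot on each array (vertical log axis), Rb deleted in red and Rb intact in hollow blue, with bars for the error given by the scanner software; the dashed line is the lowest signal that was well above background on that array. The Rb deleted spots at 73.8, 87.4 and 400.2 lie above their lines, and the Rb intact spots at 31.3, 18.8 and 18.8 lie below theirs.

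The promoters of the genes that rose, and that of Cep72, are shown for what the sequence at their starts shares. They are windows from 250 bases before to 50 bases after the start, from RefSeq (build GRCm38.p6), in the direction of the gene; 9 of the 10 genes had such a window. Capitals mark exact matches, on either strand, to the E2F motifs TTTCCCGC, TTTGGCGC, TTTCGCGC and TTTGCCGC, to the cell cycle element CHR (TTTGAA or TTCGAA) or to CCAAT. No capitals of different motifs overlap in these windows.
Cep63 (chr9:102626075-102626374, minus strand): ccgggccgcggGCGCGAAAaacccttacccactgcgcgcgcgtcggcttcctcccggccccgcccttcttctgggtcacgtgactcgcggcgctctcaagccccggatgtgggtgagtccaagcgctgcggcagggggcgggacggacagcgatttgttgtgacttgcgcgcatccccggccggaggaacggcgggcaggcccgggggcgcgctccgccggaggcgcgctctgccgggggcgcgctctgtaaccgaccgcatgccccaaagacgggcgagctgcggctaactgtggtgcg
Sass6 (chr3:116594708-116595007, plus strand): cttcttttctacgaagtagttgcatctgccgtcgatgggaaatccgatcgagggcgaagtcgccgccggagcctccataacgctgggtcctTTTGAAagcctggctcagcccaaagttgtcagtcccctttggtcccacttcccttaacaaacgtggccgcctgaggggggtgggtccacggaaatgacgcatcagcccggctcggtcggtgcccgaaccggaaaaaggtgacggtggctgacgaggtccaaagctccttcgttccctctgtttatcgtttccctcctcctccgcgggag
Nek2 (chr1:191821223-191821522, plus strand): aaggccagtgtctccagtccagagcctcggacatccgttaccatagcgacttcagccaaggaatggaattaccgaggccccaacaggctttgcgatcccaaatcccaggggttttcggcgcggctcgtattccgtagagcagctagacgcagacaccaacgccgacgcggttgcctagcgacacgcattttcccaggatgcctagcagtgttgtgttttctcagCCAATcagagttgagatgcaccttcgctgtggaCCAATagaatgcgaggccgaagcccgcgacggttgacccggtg
Cep72 (chr13:74062236-74062535, minus strand): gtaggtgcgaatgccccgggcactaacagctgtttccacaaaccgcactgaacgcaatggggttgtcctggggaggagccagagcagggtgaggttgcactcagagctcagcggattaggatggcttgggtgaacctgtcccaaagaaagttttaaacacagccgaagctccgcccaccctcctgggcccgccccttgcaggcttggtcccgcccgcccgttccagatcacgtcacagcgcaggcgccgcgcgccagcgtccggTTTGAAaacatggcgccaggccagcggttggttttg

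In these windows Cep63 held an E2F motif at position -239 from the start, on the strand opposite to the one printed. Sass6 held a CHR element at -159. Nek2 held CCAAT at -26 and +8, and Cep72 a CHR element at +15. Over the 9 windows, 1 held an E2F motif, 3 a CHR element and 5 CCAAT. Among all 32851 windows of the table, 2.26% held one of the E2F motifs, 19.23% a CHR element and 37.41% CCAAT. Plk4 had no match to any of them. A match is a description of letters, and these windows leave out anything farther from the start.

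Other genes of the pathway were taken from lists by function, drawn up with earlier results of these data known. All 99 passed the filter, 97 of them well above background on all 6 arrays. Of the 99, 21 rose and 1 fell, against 9.67% and 10.8% of all tested genes. In Rb deleted cells 75 were higher, beside 52.6% of all tested genes. The median difference of the 99 was 0.11, against 0.015 over all tested genes. At an unadjusted p under 0.05, 30 were higher and 2 lower, beside the 18.3% and 17.4% of all tested genes. With slide as a block 3 of the 99 rose, beside 1.46% of all genes. Of those 3, Aurka and Cep97 were among the 21, and Haus2 was not. Haus2 gave 0.45 ± 0.21 (SE, limma adjusted p = 0.178) over both slides and 0.90 with the block. Without Rb deleted 1, 14 of the 99 rose, beside 6.33% of all tested genes. Without Rb deleted 2 or 3, 6 and 7 of the 99 rose, beside 3.38% and 3.46%. Without Rb intact 2 or without Rb intact 3, 11 rose, beside 5.27% and 5.31%, and without Rb intact 1, 37 rose, beside 19.1%.

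Of 30 genes of centriole assembly and duplication 7 rose and none fell, beside 9.67% and 10.8% of all tested genes. At an unadjusted p under 0.05 in limma there were 10 higher and none lower, beside 18.3% and 17.4% of all tested genes. Cep97, which caps the growing centriole end together with Ccp110, had levels of -3.28, -3.27 and -3.28 in Rb deleted cells, against -4.37, -4.06 and -4.16 in Rb intact cells. Its Rb deleted cultures were nearly alike and far above the Rb intact ones. Cep97 rose by 0.92 ± 0.085 (SE, 1.89-fold, limma adjusted p = 0.00132), the largest difference among the 99 genes, and passed the threshold also with slide as a block (adjusted p = 0.0294) and without each array in turn, but not on the first slide alone (adjusted p = 0.0952). With normexp and quantile normalization its difference was 0.51 (adjusted p = 0.00449). Spice1, needed for duplication and spindle assembly, rose by 0.35 ± 0.058. Cep57l1, a relative of the centriole protein gene Cep57, rose by 0.30 ± 0.060, and Cep76, which in human cells restrains re-duplication, rose by 0.40 ± 0.082. The centrin-binding protein gene Sfi1 gave -0.89 ± 0.50 (limma adjusted p = 0.253), with levels that overlapped, and its probe was well above background on 2 of 3 Rb deleted arrays. The calls of Spice1, Cep57l1 and Cep76 were each lost without Rb deleted 2 and without Rb deleted 3, and those of Cep57l1 and Cep76 also without Rb intact 2 or 3; that of Cep76 was lost without Rb deleted 1 too.

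Of 27 genes of the pericentriolar material, the gamma-tubulin ring complex and augmin, 9 rose and none fell, beside 9.67% and 10.8% of all tested genes. At an unadjusted p under 0.05 in limma there were 11 higher and 1 lower, beside 18.3% and 17.4% of all tested genes. Aurka, the kinase that matures centrosomes before mitosis, stood at 3.13, 3.12 and 3.13 in Rb deleted cells, against 2.73, 2.69 and 2.69 in Rb intact cells. Each group was tight and the groups were far apart relative to that spread. Aurka rose by 0.42 ± 0.048 (SE, 1.34-fold, limma adjusted p = 0.0026), and it passed the threshold with slide as a block (adjusted p = 0.0468) and without each array in turn, but not on the first slide alone (adjusted p = 0.176). The augmin subunit genes Haus6 and Haus8 rose by 0.35 ± 0.049 and 0.33 ± 0.054. A second, dimmer probe of Haus6 gave -0.015 ± 0.12 (adjusted p = 0.94), and the mean of both probes 0.17 (adjusted p = 0.134). Kiz, which encodes Kizuna, rose by 0.37 ± 0.059 (limma adjusted p = 0.00877), a call lost without Rb deleted 2. That of Haus8 was lost without Rb deleted 2 or 3.

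Of 13 linker genes 1 rose and 1 fell, 7.69% each, below the 9.67% and 10.8% of all tested genes. They were also those with an unadjusted p under 0.05 in limma, where 18.3% of all tested genes were higher and 17.4% lower. Cep250, the linker protein gene C-Nap1 and a substrate of Nek2, stood at -0.72, -0.79 and -0.78 in Rb deleted cells, against -0.48, -0.45 and -0.56 in Rb intact cells. All Rb deleted cultures were lower, and Cep250 fell by 0.27 ± 0.057 (SE, limma adjusted p = 0.0217), a call lost without any 1 Rb deleted array and without Rb intact 2. Cntln, which joins the linker to the centriole, rose by 0.43 ± 0.090 (SE, limma adjusted p = 0.0223) with its other probe at 0.32 ± 0.055, and lost its call without any 1 Rb deleted array. The phosphatase inhibitor gene Ppp1r2 gave 0.13 ± 0.056 and the linker gene Cep68 -0.17 ± 0.087, neither past the threshold. Nek2, which is not in this list, rose and Cep250, which encodes its substrate, fell. A link between these changes was not tested.

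Of 17 appendage genes 1 rose and none fell, beside 9.67% and 10.8% of all tested genes. At an unadjusted p under 0.05 in limma 4 were higher and none lower, beside 18.3% and 17.4% of all tested genes. Cep83, which founds the distal appendages, rose by 0.33 ± 0.049 (SE, limma adjusted p = 0.00687) and did so without each array in turn. Its call was lost with normexp and quantile normalization (0.20, adjusted p = 0.104), with no scaling (adjusted p = 0.0656) and with slide as a block (adjusted p = 0.0725). Ccdc120 at 0.48 ± 0.16, Cep19 at 0.19 ± 0.064 and Ccdc68 at 0.25 ± 0.10 did not pass the threshold. Of 12 satellite genes 3 rose and none fell, with 4 higher and none lower at an unadjusted p under 0.05, beside the same shares. They were Cep112 (0.49 ± 0.067, and 0.30 with normexp and quantile normalization), the microtubule anchoring gene Ssx2ip (0.34 ± 0.052) and Tex9 (0.22 ± 0.048), of which Tex9 lost its call without any array but Rb intact 1. The satellite gene Ccdc66 gave 0.21 ± 0.061 (limma adjusted p = 0.0586).

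**Figure D3:**
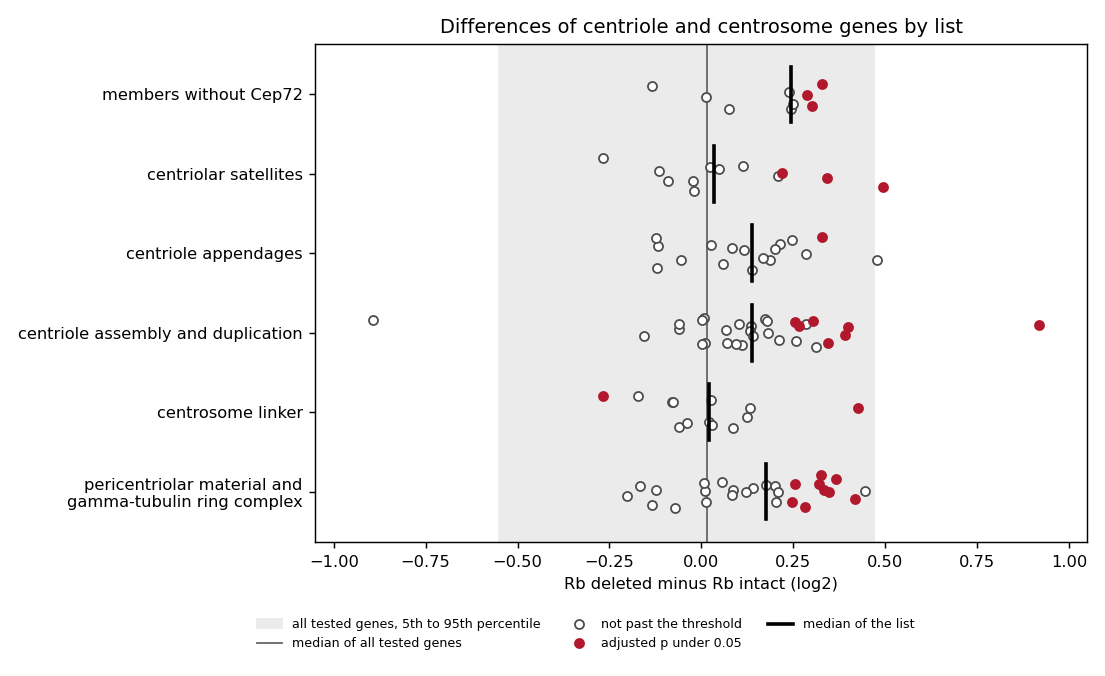
Difference of each gene (Rb deleted minus Rb intact, log2, horizontal axis) in the 9 genes without Cep72 and the 5 lists of other centriole and centrosome genes; filled points passed the threshold, thick lines are list medians and the grey band holds the middle of all tested genes from the 5th to the 95th percentile. Over the 5 lists medians run from 0.021 for the linker genes and 0.035 for the satellite genes to 0.18 for the pericentriolar material. The median of the 9 genes is 0.24.

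Values of proliferation markers are given beside these. Of 16, 7 rose and none fell, beside 9.67% and 10.8% of all tested genes. In Rb deleted cells 15 were higher, beside 52.6% of all tested genes. Each of the 15 had an unadjusted p under 0.05 in limma, where 18.3% of all tested genes were higher. The median difference was 0.26, against 0.015 over all tested genes. Counts with slide as a block or with an array left out are not given for these markers. Mcm6, a subunit of the replicative helicase and the brightest of them, rose by 0.43 ± 0.096 (SE, limma adjusted p = 0.025). Mki67, which encodes the proliferation antigen Ki-67, was the 1 lower marker, at -0.14 ± 0.069 (adjusted p = 0.204). Their summed level, in multiples of the 75th percentile, lay between 172.3 and 176.4 in Rb deleted cells, against 137.9 to 149.1 in Rb intact cells. The groups did not overlap, and the part of this in the centrosome genes was not tested. The summed level of the 5 tested epithelial markers was 10.8 to 12.4 in Rb deleted cells, against 12.7 to 13.9 in Rb intact cells. Most of these sums came from the brightest of the 5, Krt18, which did not pass the threshold (limma adjusted p = 0.204). Trp63, the basal cell regulator, fell by 0.26 ± 0.070 (SE, limma adjusted p = 0.0476). The keratin gene Krt8 gave 0.42 ± 0.13 (adjusted p = 0.0678), Krt14 0.066 ± 0.14 and Krt18 -0.16 ± 0.081, and 2 of the 5 were higher. The part of that in the centrosome genes was not tested either, and in bulk samples fewer cells of a type and less RNA per cell cannot be told apart. The 6 fibroblast markers summed to 316.2 to 344.6 in Rb deleted cells, against 336.7 to 351.6 in Rb intact cells, and none rose or fell. For 2 of the 6, both lower, the unadjusted p in limma was under 0.05, where 17.4% of all tested genes were lower.

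Multiciliated cells use the same genes to make many centrioles. Of 9 markers of that cell type 3 were tested and none passed the threshold, nor an unadjusted p of 0.05 in limma. Mcidas, Ccno and Deup1, the tested ones, were well above background on all 6 arrays. Foxj1, Ccdc78 and Dnah5 were not on any array, and Gmnc was on 1 Rb deleted and 1 Rb intact array. The tested ones summed to 3.49 to 4.38 in Rb deleted cells, against 2.00 to 6.46 in Rb intact cells. Most of these sums came from Mcidas, at a mean log2 level of 1.88 in Rb deleted and 2.05 in Rb intact cells. Of 6 leukocyte and endothelial markers 4 were tested and none passed. For 1 of the 4, higher, the unadjusted p in limma was under 0.05, where 18.3% of all tested genes were higher. The sums of the 4, 6.34 to 7.60 in Rb deleted cells, lay within the 5.57 to 9.35 of Rb intact cells.

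The slide was checked for the 9 genes. With slide as a block, or within the first slide, where Rb deleted 1 faces the 3 Rb intact arrays, the differences were 0.25 for Sass6, 0.28 for Cep63 and 0.31 for Nek2, against 0.33, 0.29 and 0.30 over both slides. Those of Plk4 and Stil were 0.28 and 0.35. None of the 9 genes passed the limma threshold with the block, where 4.89% of all genes did; at an unadjusted p under 0.05, 3 of the 9 were higher there, beside 8.97% of all genes. None passed within the first slide, where 2.06% of all genes did and none of the 9 had an unadjusted p under 0.05. An exact two-sided permutation test of 3 against 3 cultures cannot give a p below 0.1.

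**Figure D4:**
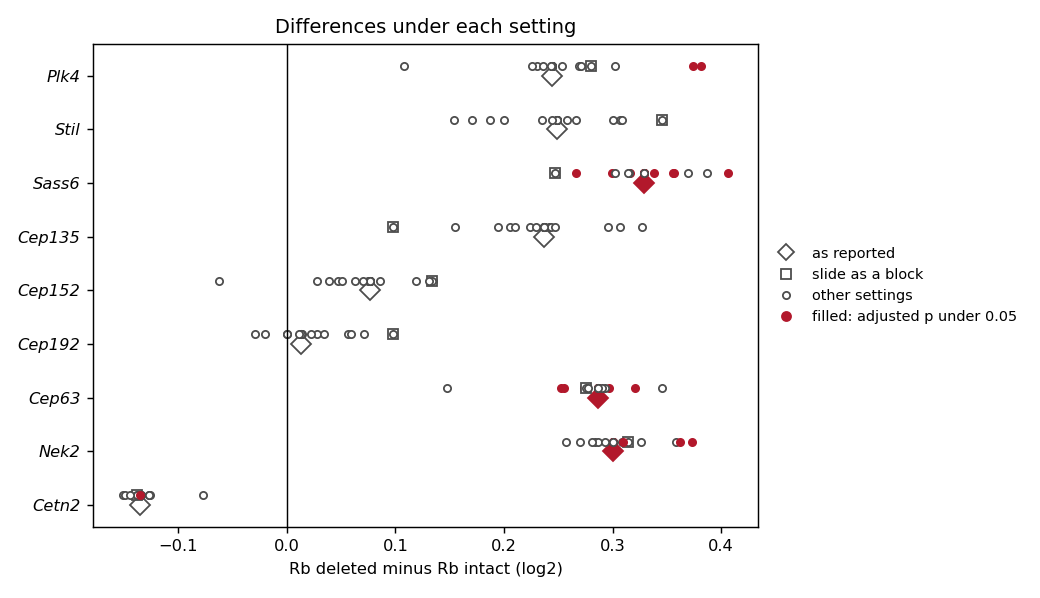
Difference of each of the 9 genes (Rb deleted minus Rb intact, log2, horizontal axis) as reported (diamonds), with slide as a block (squares) and under the other settings (circles), filled where the adjusted p was under 0.05. Sass6, Cep63 and Nek2 stay between 0.15 and 0.41 throughout. Cep152 runs from -0.062 to 0.13 and Cep192 from -0.029 to 0.098.

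The genes whose levels over the 6 arrays were most like those of Plk4 were Psmd14, Nr4a2, Rad17, Tmem161a and Moap1, with Pearson's r between 0.982 and 0.996. Those most like Cep72 were Slitrk6, Spag4, Pnpla3, Antxrl and Arhgap32, with r between 0.981 and 0.987. With 6 arrays that share 2 groups and 2 slides, such values are a description. Cep72 was not well above background on 3 of these arrays.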

How the data were processed

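RNA of 6 primary prostate cultures was labelled with Cy3 and hybridised to 1 array each. The deposited intensity values came from Agilent Feature Extraction, for which the file headers give 11.0.1.1 and the submitters' processing notes give 10.7.3.1. In these deposited files the processed intensity has its background subtracted and carries no scaling between arrays, per the file headers, and 0 or 1 flags give spots well above background, saturation and outliers. The authors also deposited a log2 table of 22164 non-control probes whose scale and centring the labels do not state. Every column matched one array's log2 intensity less a constant, within 0.01 for 100% of values, with medians between -0.52 and -0.49.

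From the 43020 non-control spots, without outlying ones, log2 processed intensities were averaged per probe and shifted by the 75th percentile of the array. A probe was kept if 1 group or both had it well above background throughout (23047 of 39429). RefSeq accessions named 27427 probes through a gene table of assembly GRCm38.p6; 12002 stayed unnamed, and since the array was designed on mm9 no probe positions or gene spans are given, and coordinates in the text are those of the RefSeq promoter windows on GRCm38.p6. Each gene took the brightest of its kept probes. The comparison used lmFit and eBayes of limma 3.58.1 (R 4.3.3, Benjamini-Hochberg adjusted p under 0.05), checked on simulated data. Where all arrays of a group were not well above background, the fold is a bound. The number of arrays limits the precision.

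The members and lists were chosen with earlier results of these data known. The text names all members, Rb1, the 4 genes with the smallest p in each pathway list, those of these lists changed past 1.5-fold, and the 5 genes most like Plk4 and Cep72; genes of marker lists other than the brightest, and Haus2, were named after their values were seen. Other settings covered scaling, background model, filter, probe choice, variance model, array weights, slide, replicate number, the deposited table and each array left out. The bound of Cep72 without each Rb deleted array was added after seeing the data.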

Additional observations from a re-analysis of the deposited data

How the results depend on the processing

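The slide, the scaling, the filter and single arrays each changed counts, and 3 cultures per group limit them all; with slide as a block or on the first slide alone, Rb deleted 1 is the only Rb deleted culture that informs the difference. As reported, 1327 of all tested genes rose and 1479 fell, 3 and 0 of the 9 centrosome genes without Cep72, and 21 and 1 of the 99 other genes. Array weights gave 3213 and 2932, 4 and 1, and 40 and 4. No scaling between arrays gave 615 and 674, 0 and 0, and 5 and 0. No filter on dim probes gave 611 and 880, 0 and 0, and 10 and 0. Normexp with quantile normalization gave 1160 and 1397, 1 and 0, and 19 and 2. Slide as a block gave 201 and 471, 0 and 0, and 3 and 0 (Aurka, Cep97 and Haus2), and the first slide alone 119 and 168, 0 and 0, and 0 and 0 (limma, unadjusted p under 0.05 for 11 of the 99, all higher). Leaving out 1 array gave 465 to 2622 and 781 to 2488 over all genes, 0 to 4 and 0 to 1 of the 9, and 6 to 37 and 0 to 2 of the 99. Quantile normalization, median scaling, the stricter filter, both other probe rules, the trended robust fit and the deposited table kept every count within 1.5 times. Nek2 lost its call with quantile normalization and with median scaling, so that 2 of the 9 rose there.

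Same-numbered cultures did not deviate together (Pearson's r across genes -0.034, -0.051 and 0.017), so the numbers were not taken as pairs; the replicate block gave 699 and 963, 0 and 0 (limma, unadjusted p under 0.05 for 4, all higher), and 9 and 1.

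Cep192, near 0 as reported, changed sign to -0.00026 with median scaling, and its range without 1 array was -0.029 to 0.059. Cep152 changed sign to -0.062 with normexp. The causes were not tested. The directions of the other 7 genes held under each setting. Cep72 was selected for its direction on these arrays, so its sign under other settings is no check. Its difference was 1.06 under normexp with quantile normalization, and its bound was 0.53 to 1.70 (log2) without 1 Rb deleted array.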
